A study of Rattus norvegicus with 15 samples.

Results

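Mitochondrial acyl-CoA oxidation was described by 36 genes, chosen by name for the enzymes that carry acyl groups into mitochondria, oxidise fatty acyl-CoA of long, medium and short chain, break down the acyl-CoA of branched chain amino acids and lysine, convert propionyl-CoA, and pass on the electrons. Each gene was read by the brightest probe set that carried its symbol, so that 36 of 14218 genes with 1 symbol on the array were members, and the 36 were among the 9540 genes that passed a filter on dim probe sets and were tested. Expression was measured in liver of male Sprague Dawley rats on an Affymetrix 3′ array. Dosing by daily gavage began at 7 weeks of age and lasted 6 weeks, on a high fat diet in which fat made up 59% of the calories. The groups were PF-04923503 at 10 mg/kg, PF-04923503 at 30 mg/kg, and vehicle (0.5% methylcellulose), with 5 arrays in each, so the vehicle group shared the diet and the gavage. In the series PF-04923503 is described as inhibiting acetyl-CoA carboxylase. The labels leave unsaid whether the samples of a group are separate animals. The p-values therefore describe sample-to-sample spread only, and the number of arrays limits the precision.

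Acetyl-CoA carboxylase makes malonyl-CoA, which is both the building block of fatty acid synthesis and an inhibitor of carnitine palmitoyltransferase 1, the gate through which long chain acyl groups enter mitochondria. Behind that gate each round of beta-oxidation runs through a dehydrogenase, a hydratase, a second dehydrogenase and a thiolase, with separate enzymes for different chain lengths. Branched chain amino acids, lysine and odd chain fatty acids use related enzymes that end in acetyl-CoA or propionyl-CoA, and acyl-CoA dehydrogenases of both routes hand their electrons to electron transfer flavoprotein. In liver the pathway supplies energy and the carbon for ketone bodies. The comparisons ask whether transcripts of these steps differed between treated and vehicle livers at each dose, and between the doses.

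Hadha and Hadhb encode the alpha and beta subunits of the mitochondrial trifunctional protein, which carries out the last 3 steps of the long chain round. They lie on opposite strands of rat chromosome 6, and the starts used for their promoter windows on GRCr8 are 301 bases apart. The RefSeq bound of the Hadhb gene, at 31907557, lies closer to Hadha than the start used. The 300-base windows (250 bases before to 50 after the start) face each other and share the 200 bases chr6:31907551-31907750. RefSeq windows on GRCr8 were found for 31 of the 36 members, and not for Cpt1b, Acadl, Acaa2, Decr1 and Bckdha. The windows of Hadha (chr6:31907551-31907850, plus strand) and Hadhb (chr6:31907451-31907750, minus strand) are shown because the expression of this pair is compared below sample by sample. That of Acadvl (chr10:55236656-55236955, minus strand) is shown for its pair of matches to AGGTCA, the element that nuclear receptors such as PPARα and its partner RXR read. That of Gcdh (chr19:40167813-40168112, plus strand) is shown because Gcdh had the lowest adjusted p of the members. Capitals mark AGGTCA on either strand.
Hadha: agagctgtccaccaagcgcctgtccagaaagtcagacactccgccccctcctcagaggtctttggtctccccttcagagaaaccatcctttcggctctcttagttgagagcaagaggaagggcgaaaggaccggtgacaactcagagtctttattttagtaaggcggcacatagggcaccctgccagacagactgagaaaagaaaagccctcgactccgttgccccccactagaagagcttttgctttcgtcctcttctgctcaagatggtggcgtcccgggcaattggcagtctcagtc
Hadhb: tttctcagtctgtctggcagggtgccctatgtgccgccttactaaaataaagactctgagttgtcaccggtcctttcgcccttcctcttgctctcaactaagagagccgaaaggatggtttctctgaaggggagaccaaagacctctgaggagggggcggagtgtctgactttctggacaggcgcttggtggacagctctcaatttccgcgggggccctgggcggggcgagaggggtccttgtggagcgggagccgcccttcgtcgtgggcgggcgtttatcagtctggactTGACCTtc
Acadvl: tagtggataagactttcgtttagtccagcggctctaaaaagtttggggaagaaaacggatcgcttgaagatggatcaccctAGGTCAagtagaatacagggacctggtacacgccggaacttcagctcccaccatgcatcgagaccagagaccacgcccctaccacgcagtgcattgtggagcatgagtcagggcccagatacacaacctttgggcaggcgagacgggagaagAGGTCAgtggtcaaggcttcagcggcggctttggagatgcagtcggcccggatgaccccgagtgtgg
Gcdh: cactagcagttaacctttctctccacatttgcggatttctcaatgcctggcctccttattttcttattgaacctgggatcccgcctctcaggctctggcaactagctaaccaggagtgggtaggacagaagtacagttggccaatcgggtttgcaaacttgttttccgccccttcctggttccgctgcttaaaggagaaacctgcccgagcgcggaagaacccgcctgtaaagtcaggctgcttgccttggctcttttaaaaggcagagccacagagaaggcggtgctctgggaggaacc

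AGGTCA stood in 7 of the 31 member windows (22.6%), against 4305 of 27457 windows of all genes (15.7%). Besides Hadhb and Acadvl these were the windows of Echs1, Eci1, Acad11, Hibadh and Mcee. In Acadvl the matches began at positions -169 and -17 from the start, on the strand of the gene. In Hadhb the match began at position 43, on the opposite strand, outside the stretch shared with Hadha. The longer element TCAAGGTCA, named for the estrogen-related receptors and overlapping the shorter one, stood in 0 of 31 member windows and in 113 of all windows (0.412%). AGGTCA repeated in the same direction after any 1 base, the direct repeat 1 bound by PPAR with RXR, stood in 0 of 31 and in 16 of all windows (0.0583%). Only exact matches were counted. In Acadvl the match at -17 is followed after 1 base by TGGTCA, which differs from AGGTCA in its first letter, so no repeat was counted. Such near matches were not sought in the other windows. The counts are matches of letters on both strands and do not show that a factor bound.

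None of the 36 genes was called at either dose or between the doses (limma, Benjamini-Hochberg adjusted p under 0.05 over all genes). At 10 mg/kg against vehicle 0.105% of all genes were called (10 of 9540, and between 0 and 26 when 1 sample was left out). Of 30 mg/kg against vehicle, and of 30 mg/kg against 10 mg/kg, 0% were called. At an unadjusted p under 0.05 (limma) the second of these comparisons had 503 genes higher and 1032 lower, and the third 245 higher and 310 lower. The lowest adjusted p among the members was 0.252 for Ivd at 10 mg/kg, 0.187 for Gcdh at 30 mg/kg, and 0.851 between the doses. The arrays gave fairly narrow limits all the same. The 95% confidence interval of the fold change lay inside 1.5-fold in either direction for 35 of the 36 members at 10 mg/kg (97.2%, against 92.6% of all genes), the exception being Ivd. It did so for 33 members at 30 mg/kg (91.7%, against 93% of all genes), the exceptions being Acad10, Bckdhb and Ivd. Between the doses it did so for 34 members (94.4%, against 94.7% of all genes), the exceptions being Crat and Eci1. Inside 1.25-fold lay 25 members at 10 mg/kg (69.4%, against 72.8% of all genes) and 28 at 30 mg/kg (77.8%, against 71.3%). Between the doses 28 did (77.8%, against 78%), so the limits were about as narrow as for other genes.

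At an unadjusted p under 0.05 (limma), 1 member was higher at 10 mg/kg (Decr1), where 4.49% of all genes were, and 4 were lower (Ivd, Dbt, Gcdh and Pcca), where 8.79% were. The higher dose had 0 members higher, against 5.27% of all genes, and 5 lower (Gcdh, Mcee, Acads, Acad10 and Dbt), against 10.8%. These counts are of the brightest probe set of each gene. By the same limit a dimmer probe set was higher for Acaa2 at 10 mg/kg and for Mmut at 30 mg/kg. A dimmer probe set of Gcdh was lower at both doses. The lower members made up 11.1% of the 36 at 10 mg/kg and 13.9% at 30 mg/kg, near the share of all genes. Between the doses 0 members were higher at 30 mg/kg, against 2.57% of all genes, and 5 were lower (Decr1, Crat, Mcee, Hadha and Hadhb), which is 13.9% of the members against 3.25% of all genes. Deviations of members within groups were correlated (median r of 0.20 over pairs, below), so these 5 are not separate observations. No member had all 5 samples of a dose above or below all 5 vehicle samples. For all genes this held for 0.975% higher and 1.47% lower at 10 mg/kg, and for 0.849% higher and 2.36% lower at 30 mg/kg. The counts of members depended on single arrays. At 10 mg/kg the total of 5 became 3 without replicate 2 of the 10 mg/kg group or replicate 2 of vehicle, and 2 without replicate 4 of vehicle. In the comparison of 30 mg/kg with vehicle the total of 5 became 3 without replicate 3, 4 or 5 of that group, 2 without its replicate 1 or replicate 4 of vehicle, and 1 without replicate 3 of vehicle. Between the doses the total of 5 became 8 without replicate 3 of the 10 mg/kg group or replicate 3 of the 30 mg/kg group. It became 2 without replicate 4 or 5 of the 30 mg/kg group, and 1 without replicate 2 or 5 of the 10 mg/kg group.

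**Figure D1:**
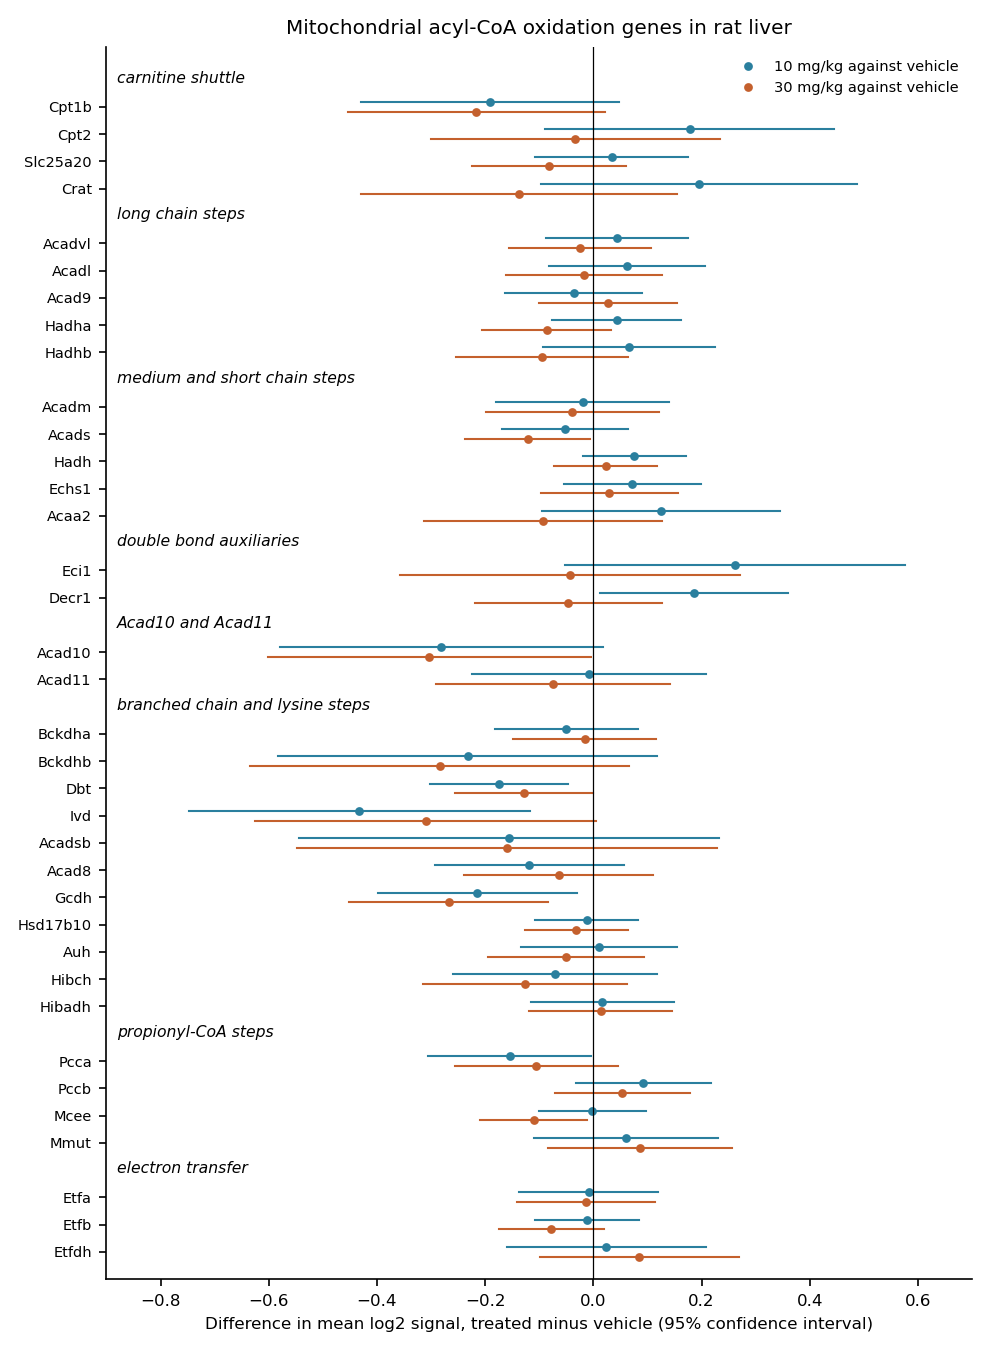
Difference in mean log2 signal from vehicle for each of the 36 genes (horizontal axis, treated minus vehicle), with 95% confidence intervals from limma, 5 arrays per group, by class of step. Blue points (10 mg/kg) lie to the right of orange points (30 mg/kg) for the carnitine shuttle and the double bond auxiliaries, while both colours lie left of 0 for Ivd, Gcdh, Dbt and Bckdhb.

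The median member differed from vehicle by -0.00465 on the log2 scale at 10 mg/kg, beside a median of -0.0202 over all genes. At that dose 17 members were higher and 19 lower in mean, and 58.2% of all genes were lower. The median member at 30 mg/kg differed by -0.0691, with 7 members higher and 29 lower in mean, beside -0.0319 over all genes, of which 62.0% were lower. For 30 mg/kg against 10 mg/kg the value was -0.0522, beside -0.00795 over all genes. Here 8 members were higher and 28 lower, and 54.4% of all genes were lower. The median member at 10 mg/kg turned positive without some single samples (0.0124 at most, without replicate 3 of that group) and was -0.0331 without replicate 5. At 30 mg/kg it was -0.0433 after quantile normalisation, and between the doses it was -0.0155 without replicate 5 of the 10 mg/kg group and -0.032 without replicate 4 of the 30 mg/kg group. The 2 comparisons with vehicle share the vehicle samples, and all 3 share samples in pairs. Within groups the members varied about as much as other genes, with a median pooled SD of 0.116 against 0.119. Hadh, Hsd17b10 and Etfb varied least (pooled SD 0.0576, 0.0576 and 0.0591), and Acadsb, Bckdhb and Ivd varied most (0.316, 0.285 and 0.255).

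By class of step, the carnitine shuttle had a median log2 difference from vehicle of 0.11 at 10 mg/kg and -0.11 at 30 mg/kg, and the long chain steps had 0.043 and -0.025. Medium and short chain steps gave 0.072 at 10 mg/kg and -0.039 at 30 mg/kg, and the pair of double bond auxiliaries gave 0.22 and -0.045. In these 4 classes, 16 genes in all, the median was thus positive at 10 mg/kg and negative at 30 mg/kg. Their sizes depended on single arrays. At 10 mg/kg the carnitine shuttle gave 0.070 and 0.064 without replicate 2 or 5 of that group. The long chain steps gave 0.019 and 0.027 without the same samples, and 0.066 without replicate 4 of vehicle. The medium and short chain steps gave 0.039 and 0.046 without replicate 1 or 5 of the 10 mg/kg group and 0.038 without replicate 4 of vehicle. At 30 mg/kg, with 1 sample left out, the carnitine shuttle lay between -0.173 (without replicate 3 of that group) and -0.046 (without its replicate 4), the long chain steps between -0.059 (without replicate 2 of vehicle) and -0.007 (without replicate 5 of the 30 mg/kg group), and the double bond auxiliaries between -0.124 and -0.008 (without replicate 3 or 2 of the 30 mg/kg group). The medium and short chain steps turned positive there, at 0.015, without replicate 3 of vehicle, and gave -0.115 without replicate 1 of vehicle.

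Acad10 and Acad11 gave -0.14 at 10 mg/kg and -0.19 at 30 mg/kg. At 10 mg/kg this pair lay between -0.229 (without replicate 1 of vehicle) and -0.084 (without replicate 3 of the 10 mg/kg group). Of the 11 branched chain and lysine genes 9 were lower in mean at 10 mg/kg and 10 at 30 mg/kg, against 58.2% and 62.0% of all genes. Their medians were -0.12 at 10 mg/kg and -0.13 at 30 mg/kg. With 1 sample left out at a time, that median lay between -0.15 and -0.060 at 10 mg/kg, the last without replicate 2 of that group, and between -0.13 and -0.088 at 30 mg/kg. The propionyl-CoA genes gave 0.029 and -0.026, and with 1 sample left out 0.001 to 0.046 at 10 mg/kg and -0.037 to -0.006 at 30 mg/kg. The electron transfer genes gave -0.0089 and -0.013, and lay on either side of 0 at both doses with 1 sample left out, at -0.032 to 0.015 and -0.049 to 0.025. The medians of 30 mg/kg against 10 mg/kg were -0.16 for the carnitine shuttle (-0.104 without replicate 4 of the 30 mg/kg group), -0.081 for the long chain steps (-0.052 without replicate 2 of the 10 mg/kg group) and -0.053 for the medium and short chain steps (-0.030 without replicate 5 of the 10 mg/kg group). They were -0.27 for the double bond auxiliaries, -0.045 for Acad10 and Acad11 and -0.0038 for the branched chain and lysine steps, and without replicate 5 of the 10 mg/kg group the last of these gave 0.038 and Acad10 and Acad11 gave 0.033. No class was tested as a group.

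**Figure D2:**
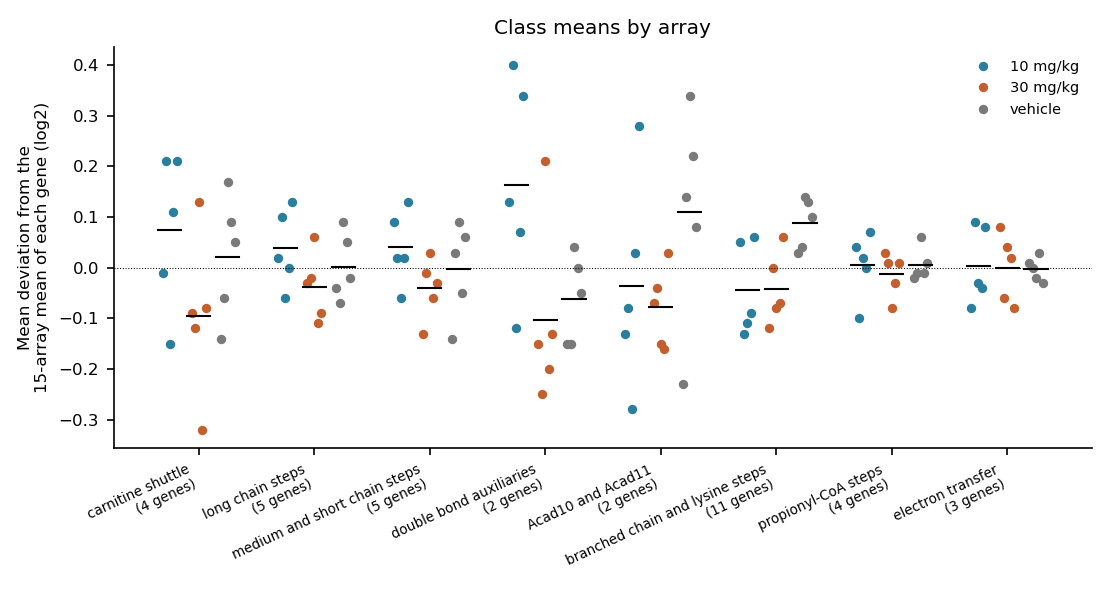
Mean deviation of each class from the 15-array mean of its genes (vertical axis, log2), with 1 point per array and a bar at the mean of each group of 5. Points of the 3 groups overlap in every class, and for the branched chain and lysine steps the arrays lie between -0.13 and 0.06 at 10 mg/kg, -0.12 and 0.06 at 30 mg/kg, and 0.03 and 0.14 in vehicle.

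The carnitine shuttle was measured by Cpt1b, Cpt2, Slc25a20 and Crat. Cpt1b, the muscle isoform of carnitine palmitoyltransferase 1, gave log2 signals of 6.09, 6.29, 6.03, 6.57 and 6.29 at 10 mg/kg, 6.29, 6.14, 6.24, 6.18 and 6.29 at 30 mg/kg, and 6.15, 6.32, 6.75, 6.64 and 6.36 in vehicle. These values lie close to the filter limit of 6.095, and 0 of 6 skeletal muscle markers passed that filter. The fold against vehicle was 0.876 (0.743 to 1.03) at 10 mg/kg and 0.861 (0.730 to 1.02) at 30 mg/kg, with 95% confidence intervals in parentheses here and below. Slc25a20, the carnitine-acylcarnitine carrier of the inner membrane, read 10.25, 10.41, 10.20, 10.16 and 10.44 at 10 mg/kg, 10.18, 10.11, 10.32, 10.06 and 10.21 at 30 mg/kg, and 10.24, 10.15, 10.32, 10.35 and 10.23 in vehicle. The ranges of the 3 groups overlapped for the most part.

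Cpt2 encodes carnitine palmitoyltransferase 2, which returns the acyl group to coenzyme A inside the mitochondrion. Its log2 signals were 10.57, 10.77, 10.33, 10.71 and 10.83 at 10 mg/kg, 10.27, 10.54, 10.81, 10.08 and 10.47 at 30 mg/kg, and 10.38, 10.35, 10.66, 10.58 and 10.35 in vehicle. The highest 30 mg/kg sample lay above all vehicle samples and the lowest below them. Its fold was 1.13 (0.941 to 1.36) at 10 mg/kg and 0.977 (0.812 to 1.18) at 30 mg/kg. Crat, carnitine acetyltransferase, which buffers short acyl groups as carnitine esters, read 9.52, 9.82, 9.31, 9.47 and 9.74 at 10 mg/kg, 9.37, 9.20, 9.60, 8.85 and 9.17 at 30 mg/kg, and 9.12, 9.39, 9.43, 9.25 and 9.70 in vehicle. It averaged 9.57 ± 0.20 at 10 mg/kg, 9.24 ± 0.28 at 30 mg/kg and 9.38 ± 0.22 for vehicle (SD, n = 5 each). Crat was thus 0.794-fold (0.648 to 0.972) at 30 mg/kg against 10 mg/kg, but with an adjusted p of 0.851 (limma), and the samples of the 2 doses overlapped.

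The long chain steps differed little between groups. Acadvl, very long chain acyl-CoA dehydrogenase, read 11.20, 11.34, 11.17, 11.21 and 11.29 at 10 mg/kg, 11.18, 11.23, 11.27, 11.17 and 11.03 at 30 mg/kg, and 11.20, 11.06, 11.24, 11.36 and 11.14 in vehicle. Its fold was 1.03 (0.941 to 1.13) at 10 mg/kg and 0.983 (0.898 to 1.08) at 30 mg/kg. Acadl, long chain acyl-CoA dehydrogenase, read 13.04, 13.25, 13.06, 13.14 and 13.19 at 10 mg/kg, 13.02, 13.13, 13.12, 13.00 and 13.01 at 30 mg/kg, and 12.99, 12.98, 13.33, 13.09 and 12.97 in vehicle. Replicate 3 of vehicle was the highest of the 15 Acadl values. Acad9, a related dehydrogenase that also serves in the assembly of respiratory complex I, had a fold of 0.975 at 10 mg/kg and 1.02 at 30 mg/kg. For these 5 genes, Hadha and Hadhb included, every interval against vehicle lay between 0.839 and 1.17.

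Hadha, which holds the long chain hydratase and hydroxyacyl-CoA dehydrogenase activities, read 12.12, 12.29, 12.08, 12.01 and 12.21 at 10 mg/kg, 12.03, 11.99, 12.12, 11.91 and 12.01 at 30 mg/kg, and 12.07, 12.05, 12.18, 12.11 and 12.09 in vehicle. Hadhb, the thiolase subunit, read 12.29, 12.41, 12.17, 12.21 and 12.51 at 10 mg/kg, 12.21, 12.08, 12.39, 12.04 and 12.08 at 30 mg/kg, and 12.28, 12.18, 12.29, 12.25 and 12.25 in vehicle. In both genes replicate 3 was the highest sample at 30 mg/kg and replicate 4 the lowest, and the vehicle samples lay closest together. The fold of 30 mg/kg against 10 mg/kg was 0.914 (0.842 to 0.993) for Hadha and 0.895 (0.802 to 0.999) for Hadhb, each with an adjusted p of 0.851 (limma). A dimmer probe set of Hadha gave a log2 difference of -0.019 between the doses, where the brightest gave -0.13, and 0.053 at 30 mg/kg against vehicle, where the brightest gave -0.086.

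**Figure D3:**
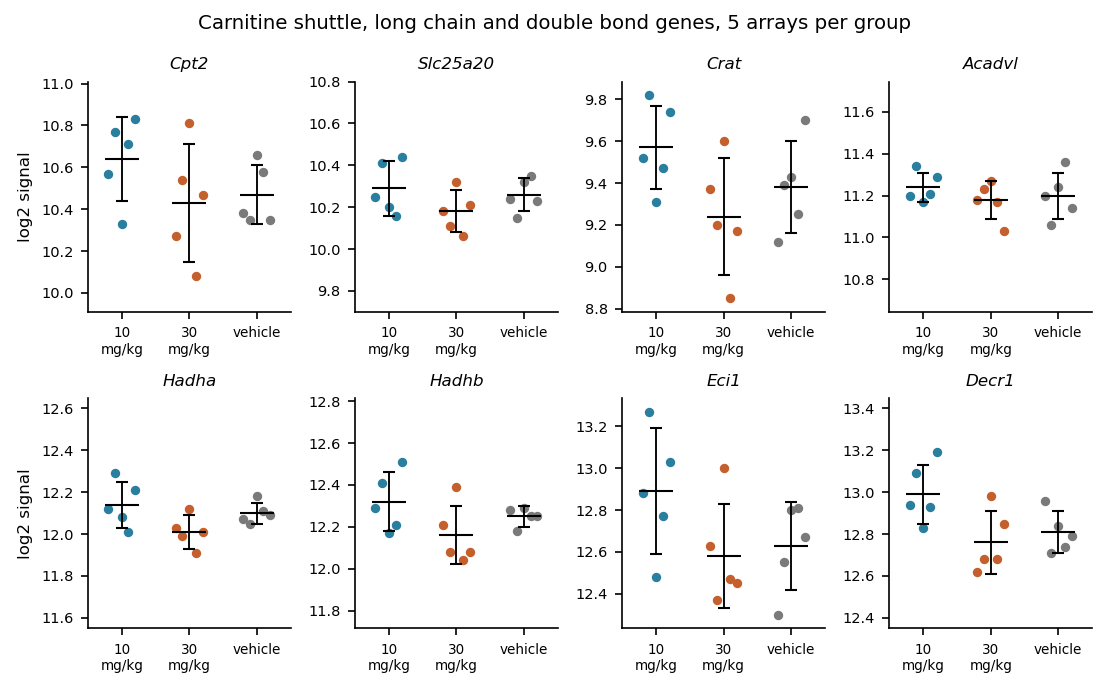
Log2 signal (vertical axis) of 8 genes of the carnitine shuttle, long chain steps and double bond auxiliaries on each of the 15 arrays, with the mean and SD of each group of 5. Groups overlap in every panel, and replicate 3 is the highest 30 mg/kg point of each gene, at 12.98 for Decr1 and 13.00 for Eci1.

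The subunits of 4 complexes were compared by their deviations from the group mean over the 15 samples, with 100000 permutations within groups (two-sided) and Benjamini-Hochberg adjustment over the 4 pairs, which were chosen after the values were seen. Hadha and Hadhb deviated together (Pearson r = 0.82, permutation p = 0.00292, adjusted 0.0117; Spearman rho = 0.86, p = 0.00047, adjusted 0.00188). Without the 2 samples farthest from the median of Hadha, r was 0.87. For Etfa and Etfb r was 0.45 (permutation p = 0.119, adjusted 0.174), rho was 0.35 (p = 0.229, adjusted 0.306), and r was 0.35 without 2 samples. For Pcca and Pccb r was 0.44 (permutation p = 0.131, adjusted 0.174), rho was 0.50 (p = 0.0975, adjusted 0.195), and r was 0.25 without 2 samples. For Bckdha and Bckdhb r was 0.081 (permutation p = 0.782, adjusted 0.782), rho was 0.011 (p = 0.976, adjusted 0.976), and r was 0.084 without 2 samples. A shared deviation is not particular to subunits of 1 complex: over all 630 pairs of members the median r was 0.20, and 5 pairs, Hadha with Hadhb among them, reached 0.82, with Slc25a20 and Hadha highest at 0.90. All pairs share their arrays, and what else moved with these deviations was not tested.

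**Figure D4:**
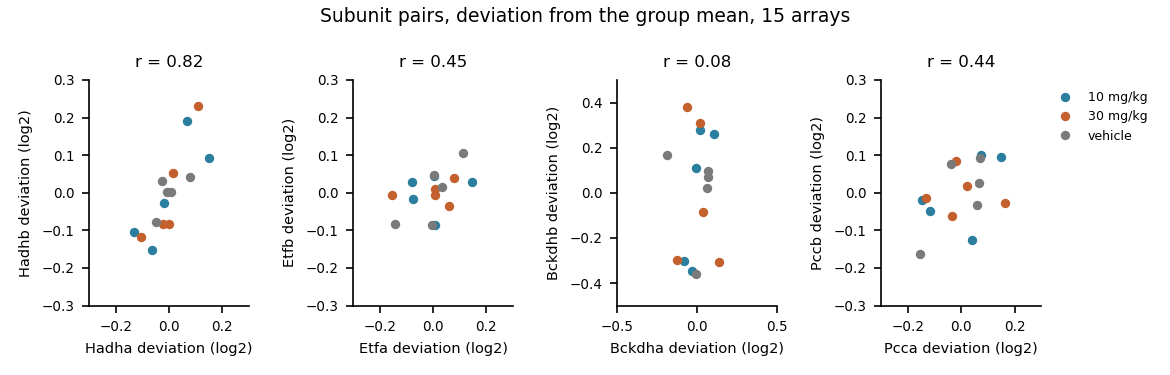
Deviation of each sample from its group mean (log2) for 1 subunit (horizontal axis) and its partner (vertical axis), 15 arrays coloured by group, with Pearson r above each panel and wider axes for Bckdha and Bckdhb. Hadha and Hadhb lie along a line (r = 0.82), whereas Bckdhb falls into high and low values that Bckdha does not share (r = 0.08).

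Among the medium and short chain steps, Acadm, medium chain acyl-CoA dehydrogenase, read 13.33, 13.29, 13.23, 13.33 and 13.42 at 10 mg/kg, 13.34, 13.28, 13.33, 13.32 and 13.22 at 30 mg/kg, and 13.03, 13.36, 13.55, 13.40 and 13.34 in vehicle. Both doses lay inside the vehicle range. Acads, short chain acyl-CoA dehydrogenase, read 10.20, 10.14, 10.05, 10.11 and 10.18 at 10 mg/kg, 9.96, 10.07, 10.18, 10.13 and 10.00 at 30 mg/kg, and 10.15, 10.11, 10.26, 10.30 and 10.12 in vehicle. Its fold at 30 mg/kg was 0.919 (0.848 to 0.996), with an adjusted p of 0.290 (limma), and 3 of the 5 samples of that dose lay below the lowest vehicle sample. Hadh, the hydroxyacyl-CoA dehydrogenase of shorter chains, read 13.10, 13.10, 13.04, 13.07 and 13.19 at 10 mg/kg, 12.99, 13.08, 13.09, 13.03 and 13.05 at 30 mg/kg, and 12.93, 13.06, 13.08, 12.96 and 13.09 in vehicle. It had the smallest spread of the members, and its fold was 1.05 (0.987 to 1.13) at 10 mg/kg and 1.02 (0.951 to 1.09) at 30 mg/kg. Echs1, short chain enoyl-CoA hydratase, had folds of 1.05 at 10 mg/kg and 1.02 at 30 mg/kg. Acaa2, a thiolase, had 1.09 at 10 mg/kg and 0.937 at 30 mg/kg. A dimmer probe set of Acaa2 gave a log2 difference of 0.33 at 10 mg/kg, where the brightest gave 0.13, and 0.060 at 30 mg/kg, where the brightest gave -0.094.

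Eci1 and Decr1 prepare unsaturated acyl chains for beta-oxidation by moving or reducing their double bonds. Decr1, 2,4-dienoyl-CoA reductase, read 12.94, 13.09, 12.83, 12.93 and 13.19 at 10 mg/kg, 12.62, 12.68, 12.98, 12.68 and 12.85 at 30 mg/kg, and 12.96, 12.71, 12.84, 12.74 and 12.79 in vehicle. It averaged 12.99 ± 0.14 at 10 mg/kg, 12.76 ± 0.15 at 30 mg/kg and 12.81 ± 0.10 for vehicle (SD, n = 5 each). The fold was 1.14 (1.01 to 1.28) at 10 mg/kg, with an adjusted p of 0.346 (limma), and 0.969 (0.859 to 1.09) at 30 mg/kg. Between the doses it had the lowest unadjusted p of the members, with a fold of 0.852 (0.755 to 0.961) at 30 mg/kg against 10 mg/kg and an adjusted p of 0.851 (limma). Eci1, an enoyl-CoA isomerase, read 12.88, 13.27, 12.48, 12.77 and 13.03 at 10 mg/kg, 12.63, 12.37, 13.00, 12.47 and 12.45 at 30 mg/kg, and 12.30, 12.55, 12.80, 12.81 and 12.67 in vehicle. Replicates 2 and 5 were the highest 10 mg/kg samples for Decr1 as for Eci1, and replicate 3 was the lowest. Its fold was 1.20 (0.964 to 1.49) at 10 mg/kg and 0.970 (0.780 to 1.21) at 30 mg/kg.

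Acad10 and Acad11 are members of the acyl-CoA dehydrogenase family whose substrates in liver are less well known. Acad10 read 8.31, 8.26, 8.09, 8.55 and 8.60 at 10 mg/kg, 8.42, 8.26, 8.20, 8.28 and 8.53 at 30 mg/kg, and 8.19, 8.75, 9.04, 8.80 and 8.42 in vehicle. The vehicle samples held both nearly the lowest and the highest values, so the groups overlapped. Its fold was 0.823 (0.669 to 1.01) at 10 mg/kg and 0.810 (0.659 to 0.997) at 30 mg/kg, with adjusted p-values of 0.403 and 0.302 (limma). Acad11 had folds of 0.995 at 10 mg/kg and 0.950 at 30 mg/kg.

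The branched chain and lysine steps begin with the branched chain ketoacid dehydrogenase, of which Bckdha and Bckdhb are the E1 subunits and Dbt the E2 core. Dbt read 9.56, 9.29, 9.44, 9.48 and 9.56 at 10 mg/kg, 9.53, 9.62, 9.37, 9.51 and 9.52 at 30 mg/kg, and 9.67, 9.61, 9.67, 9.55 and 9.71 in vehicle. At 10 mg/kg 3 of the 5 samples lay below the lowest vehicle sample and the other two just above it. Dbt had a fold of 0.886 (0.811 to 0.969) at 10 mg/kg and 0.915 (0.837 to 1.00) at 30 mg/kg, with adjusted p-values of 0.258 and 0.308 (limma). Bckdhb was 0.851-fold (0.668 to 1.09) at 10 mg/kg and 0.821-fold (0.644 to 1.05) at 30 mg/kg. Its values lay at 10.88 to 11.50 at 10 mg/kg, 10.87 to 11.56 at 30 mg/kg and 11.10 to 11.63 in vehicle, with SDs of 0.30, 0.33 and 0.21. Bckdha had folds of 0.966 at 10 mg/kg and 0.989 at 30 mg/kg, and a dimmer probe set of it gave log2 differences of 0.12 and 0.19, against -0.050 and -0.016 for the brightest.

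Ivd, isovaleryl-CoA dehydrogenase of leucine breakdown, read 10.91, 10.31, 10.66, 10.82 and 10.35 at 10 mg/kg, 10.48, 11.04, 10.77, 10.46 and 10.91 at 30 mg/kg, and 10.63, 11.16, 11.11, 11.14 and 11.18 in vehicle. All 10 treated samples lay below 4 of the 5 vehicle samples, and replicate 1 of vehicle lay among the treated ones. The mean was 10.61 ± 0.27 at 10 mg/kg, 10.73 ± 0.26 at 30 mg/kg and 11.04 ± 0.23 for vehicle (SD, n = 5 each). The fold was 0.741 (0.596 to 0.922) at 10 mg/kg and 0.807 (0.649 to 1.00) at 30 mg/kg, with adjusted p-values of 0.252 and 0.319 (limma). Without replicate 1 of vehicle the log2 difference at 10 mg/kg was -0.54, against -0.43 with it, and the adjusted p was 0.128, which still missed the threshold (limma).

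Gcdh, glutaryl-CoA dehydrogenase of lysine and tryptophan breakdown, read 11.96, 11.96, 11.80, 11.74 and 11.92 at 10 mg/kg, 11.74, 11.92, 11.67, 11.69 and 12.09 at 30 mg/kg, and 11.86, 12.13, 12.12, 12.20 and 12.14 in vehicle. Here too all treated samples lay below 4 of the 5 vehicle samples, and replicate 1 of vehicle lay among them. The mean was 11.88 ± 0.10 at 10 mg/kg, 11.82 ± 0.18 at 30 mg/kg and 12.09 ± 0.13 for vehicle (SD, n = 5 each). Gcdh had a fold of 0.862 (0.759 to 0.979) at 10 mg/kg and 0.831 (0.732 to 0.944) at 30 mg/kg, with adjusted p-values of 0.315 and 0.187 (limma). The other probe sets of Gcdh gave log2 differences of -0.31 and -0.16 at 10 mg/kg and -0.42 and -0.15 at 30 mg/kg, against -0.21 and -0.27 for the brightest. Without replicate 1 of vehicle the difference at 30 mg/kg was -0.33 (limma, adjusted p = 0.127), and without replicate 5 of the 30 mg/kg group it was -0.33 as well (adjusted p = 0.126).

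Acadsb, the short/branched chain dehydrogenase of isoleucine breakdown, read 8.41, 8.01, 8.16, 8.10 and 8.43 at 10 mg/kg, 8.32, 7.35, 8.37, 8.48 and 8.57 at 30 mg/kg, and 8.25, 8.53, 8.53, 8.34 and 8.23 in vehicle. Replicate 2 at 30 mg/kg lay far below the other samples, and the fold at that dose was 0.895 (0.684 to 1.17) with this sample and 1.04 without it. Acad8, isobutyryl-CoA dehydrogenase of valine breakdown, had folds of 0.921 at 10 mg/kg and 0.957 at 30 mg/kg. Hibch, the hydrolase that follows in the same route, had 0.952 and 0.916. Hibadh, the next dehydrogenase, had 1.01 at both doses. Hsd17b10, which acts on isoleucine intermediates, had 0.992 and 0.978. Auh, a hydratase of leucine breakdown, had 1.01 and 0.966. Every interval of these 5 genes against vehicle lay inside 1.25-fold in either direction, and none of the 5 had an unadjusted p under 0.05 (limma).

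**Figure D5:**
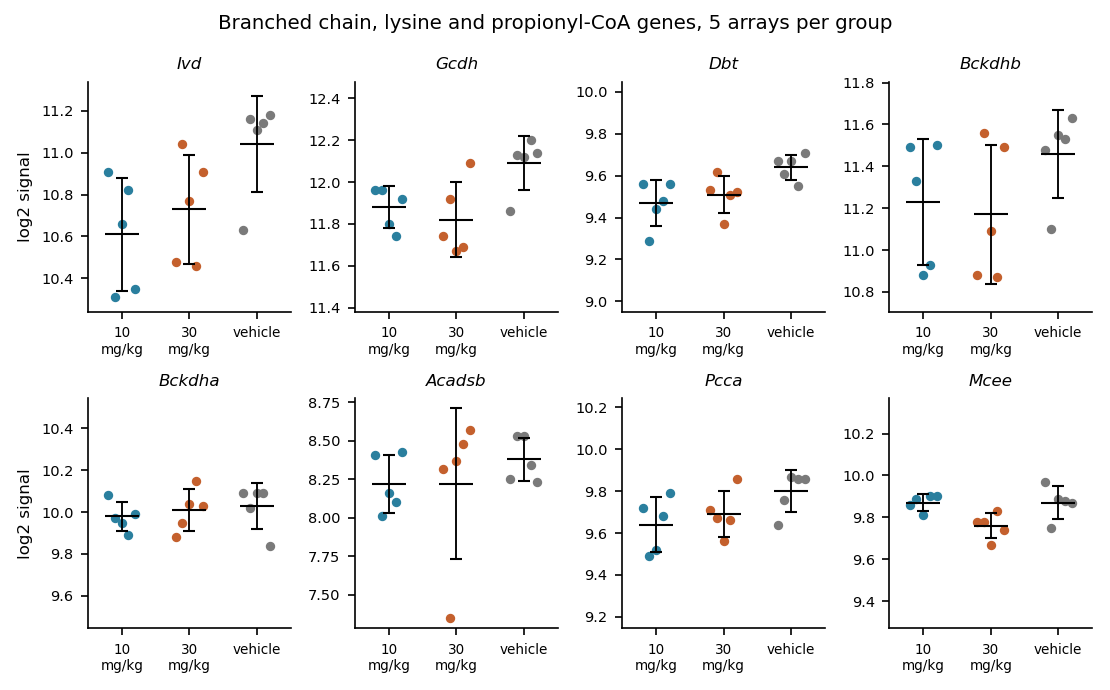
Log2 signal (vertical axis) of 8 genes of branched chain, lysine and propionyl-CoA breakdown on each of the 15 arrays, with the mean and SD of each group of 5. For Ivd and Gcdh 4 vehicle points lie above every treated point and the fifth, at 10.63 and 11.86, lies among them, and Acadsb has 1 low 30 mg/kg point at 7.35.

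Propionyl-CoA, left by isoleucine, valine and odd chain fatty acids, is carboxylated by Pcca and Pccb, turned by the epimerase Mcee and rearranged to succinyl-CoA by the mutase Mmut. Pcca read 9.72, 9.49, 9.52, 9.68 and 9.79 at 10 mg/kg, 9.71, 9.67, 9.56, 9.66 and 9.86 at 30 mg/kg, and 9.64, 9.76, 9.87, 9.86 and 9.86 in vehicle, with a fold of 0.898 (0.809 to 0.997) at 10 mg/kg (limma, adjusted p = 0.362). Pccb read 11.22, 11.10, 11.07, 10.99 and 11.22 at 10 mg/kg, 11.10, 11.16, 11.07, 11.02 and 11.05 at 30 mg/kg, and 10.86, 11.10, 11.12, 10.99 and 11.05 in vehicle. The partner subunits of the carboxylase thus had mean differences of opposite sign, -0.15 for Pcca and 0.092 for Pccb on the log2 scale at 10 mg/kg. Mcee read 9.86, 9.89, 9.81, 9.90 and 9.90 at 10 mg/kg, 9.78, 9.78, 9.67, 9.83 and 9.74 at 30 mg/kg, and 9.97, 9.75, 9.89, 9.88 and 9.87 in vehicle. Its 30 mg/kg samples lay below 4 of the 5 vehicle samples and overlapped the 10 mg/kg samples in 1 value, with a fold of 0.926 (0.865 to 0.992) against vehicle (limma, adjusted p = 0.264) and 0.928 (0.866 to 0.993) against 10 mg/kg (adjusted p = 0.851). Mmut read 11.02, 10.79, 11.33, 11.07 and 11.03 at 10 mg/kg, 11.18, 11.08, 11.03, 11.03 and 11.04 at 30 mg/kg, and 11.10, 11.03, 11.02, 10.88 and 10.90 in vehicle, and its dimmer probe sets gave differences of the same sign. For 1 of these the log2 difference at 30 mg/kg was 0.13 (limma, unadjusted p = 0.0251, adjusted over all probe sets 0.25).

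Electron transfer flavoprotein (Etfa and Etfb) and its dehydrogenase (Etfdh) collect the electrons of all the acyl-CoA dehydrogenases above. Etfa had folds of 0.994 at 10 mg/kg and 0.991 at 30 mg/kg, and Etfb had 0.992 and 0.948. Etfdh read 11.73, 12.11, 11.85, 11.84 and 11.95 at 10 mg/kg, 12.08, 11.93, 12.07, 12.01 and 11.70 at 30 mg/kg, and 11.69, 11.97, 11.78, 11.92 and 11.99 in vehicle. The samples of the 3 groups covered nearly the same range, and its fold was 1.02 (0.895 to 1.16) at 10 mg/kg and 1.06 (0.934 to 1.21) at 30 mg/kg.

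Other genes of fatty acid oxidation were measured for 19 of the 21 listed, and 0 were called at either dose (limma), with 4 higher and 1 lower at an unadjusted p under 0.05 at 10 mg/kg and 1 in each direction at 30 mg/kg. By the same limit 4.49% of all genes were higher and 8.79% lower at 10 mg/kg, and 5.27% and 10.8% at 30 mg/kg. Slc22a5, the plasma membrane carnitine transporter, read 8.72, 8.97, 8.55, 8.34 and 8.50 at 10 mg/kg and 8.21, 8.23, 8.21, 7.48 and 7.99 in vehicle, without overlap, with a fold of 1.51 (1.23 to 1.85) and an adjusted p of 0.119 (limma). Acsm3, a medium chain acyl-CoA synthetase, was 0.496-fold (0.304 to 0.809) at 10 mg/kg, again without overlap (limma, adjusted p = 0.235). Acot2, a mitochondrial acyl-CoA thioesterase, was 1.54-fold (1.10 to 2.16) and the coactivator Ppargc1a was 1.40-fold (1.06 to 1.84) at 10 mg/kg, with adjusted p-values of 0.276 and 0.301 (limma). The folds at 30 mg/kg were 1.15 for Slc22a5, 0.633 for Acsm3, 1.15 for Acot2 and 1.27 for Ppargc1a. The largest upward difference of the list at 30 mg/kg was that of Pdk4, 0.588 on the log2 scale. Pdk4 averaged 10.96 ± 0.39 at 10 mg/kg, 10.92 ± 0.67 at 30 mg/kg and 10.34 ± 0.24 for vehicle (SD, n = 5 each). It read 11.15, 11.18, 10.98, 10.27 and 11.20 at 10 mg/kg, 11.01, 11.12, 11.89, 10.39 and 10.21 at 30 mg/kg, and 10.13, 10.17, 10.54, 10.19 and 10.65 in vehicle. Each dose thus held samples above all of vehicle and samples within its range. Cpt1a, the liver isoform of carnitine palmitoyltransferase 1 and named here after its values were seen, had a fold of 1.15 (0.901 to 1.46) at 10 mg/kg and 0.973 (0.765 to 1.24) at 30 mg/kg.

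Other genes of branched chain, lysine and propionate breakdown were measured for 13 of 18, with 0 called at either dose (limma), 3 higher and 1 lower at an unadjusted p under 0.05 at 10 mg/kg, and 2 higher and 1 lower at 30 mg/kg. The shares of all genes were 4.49% higher and 8.79% lower at 10 mg/kg, and 5.27% and 10.8% at 30 mg/kg. Bckdk, the kinase that inactivates the branched chain ketoacid dehydrogenase, read 9.24, 9.29, 9.31, 9.49 and 9.47 at 10 mg/kg, 9.24, 9.66, 9.36, 9.11 and 9.23 at 30 mg/kg, and 8.84, 9.16, 9.17, 8.88 and 9.12 in vehicle. The 10 mg/kg samples lay above all vehicle samples, with a fold of 1.25 (1.08 to 1.45; limma, adjusted p = 0.205), and at 30 mg/kg the fold was 1.22 (1.05 to 1.41; adjusted p = 0.207). Slc25a44, a mitochondrial carrier of branched chain amino acids, was 1.24-fold at 10 mg/kg (limma, adjusted p = 0.242) and 1.11-fold at 30 mg/kg. Dld, the E3 subunit shared with other dehydrogenase complexes, had folds of 1.10 at 10 mg/kg and 1.12 at 30 mg/kg. Mmaa, which serves the cobalamin cofactor of the mutase, was 0.897-fold at 10 mg/kg and 0.849-fold at 30 mg/kg (limma, adjusted p = 0.176 at 30 mg/kg).

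Markers of mitochondrial content were measured for 16 of 18, and 0 had an unadjusted p under 0.05 at either dose (limma), with median log2 differences of -0.0068 at 10 mg/kg and -0.015 at 30 mg/kg and every interval inside 1.25-fold. Among them Tfam, the mitochondrial transcription factor, had folds of 0.964 at 10 mg/kg and 0.939 at 30 mg/kg, the import pore Tomm40 0.930 and 0.974, prohibitin Phb2 0.918 and 0.955, and Atp5f1b of ATP synthase 1.05 and 1.04.

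The samples carried liver markers throughout: the mean log2 level of 7 hepatocyte markers lay at 14.28 to 14.36 at 10 mg/kg, 14.28 to 14.33 at 30 mg/kg and 14.30 to 14.33 in vehicle. Of these 7 markers 2 were lower in mean at 10 mg/kg and 3 at 30 mg/kg. Markers of several other cell types were mostly lower in mean in the treated groups. Of all genes 58.2% were lower at 10 mg/kg and 62.0% at 30 mg/kg. For Kupffer cells and macrophages 8 of 8 measured markers were lower at each dose, 0 of them called (limma), with levels of 8.49 to 9.18 at 10 mg/kg, 8.36 to 9.48 at 30 mg/kg and 8.96 to 9.53 in vehicle. For endothelial cells 6 of 6 were lower at each dose, with levels of 8.63 to 9.01 at 10 mg/kg, 8.69 to 9.09 at 30 mg/kg and 9.01 to 9.25 in vehicle. For stellate cells and matrix 7 of 7 were lower at 10 mg/kg and 5 at 30 mg/kg, with levels of 7.23 to 7.46 at 10 mg/kg, 7.20 to 7.85 at 30 mg/kg and 7.36 to 7.70 in vehicle. Few markers were measured for blood (3 of 5), lymphocytes and neutrophils (3 of 8), cholangiocytes (1 of 4) and adipocytes (1 of 5). Of these 0 were called. Only 3 of the blood markers had a probe set with their symbol alone, and all 3 passed the filter. For cholangiocytes 3 of 4 had such a probe set. Of the blood markers 3 were lower at 10 mg/kg and 2 at 30 mg/kg, and of the lymphocyte and neutrophil markers 2 at each dose. The cholangiocyte marker was higher at each dose, by 0.042 and 0.069 on the log2 scale. From the adipocyte list only Cidec was measured, and it was lower in mean at each dose. Adipoq, Fabp4, Plin1 and Lep did not pass the filter, so Cidec alone does not speak for adipocytes. The part of any of these in the members' values was not tested. In whole liver, fewer cells of a type and less RNA per cell cannot be told apart. Over all probe sets the 15 arrays correlated with each other at 0.989 to 0.996, and 0 pairs held identical values.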

How the data were processed

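Liver RNA of 15 samples was hybridised to 1 array each. The deposited values are log2 signals per probe set, summarised by the authors with arrays brought to a common scale, which would hide a shift of most genes. The tools, per the submitters' processing notes, include RMA, GCRMA 2.12.1 and limma 2.14.7. Which of the first pair made the values was not given in the sources used here. Array medians lay at 6.08 to 6.12, and 0 columns belonged to no sample.

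Of 31099 probe sets 57 controls were left out. Of the rest 20826 carried 1 gene symbol, 436 several and 9780 none. Probe sets were kept where the fifth highest of the 15 values exceeded the median of all values (6.095), and the brightest with 1 symbol stood for its gene. Groups, from the sample titles, were fitted to all 15 arrays with limma 3.58.1 (R 4.3.3, eBayes without trend or robust), with Benjamini-Hochberg adjustment over 9540 genes. The fit was tested on simulated data. Correlations used numpy 2.4.6 and pandas 2.3.3, with ranks from scipy 1.17.1.

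Members and lists (the classes, other oxidation and amino acid genes, mitochondrial content, cell type markers) were chosen with earlier results of these data known. Every member is named. Values on every array are given for the 4 members highest and lowest by p at each dose, the 2 with the lowest p between doses, and 10 chosen genes (Cpt1b, Cpt2, Slc25a20, Acadvl, Acadl, Acadm, Acads, Hadha, Hadhb and Acadsb). From each other list up to 4 genes with the smallest p are named, and Cpt1a and Pdk4 were added after their values were seen. Filters, probe set rules, normalisation, variance model, samples in the fit, the replicate number as a block and each sample left out were tried as alternatives.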

Additional observations from a re-analysis of the deposited data

Results flagged for a closer look

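In 5 of 108 groups of 5 samples (36 genes in 3 groups) the highest or lowest sample stood apart from the others by more than Dixon's critical value of 0.71. Chance flags about 1 in 20 groups, so this number is no more than chance gives. Each of the 5 was a low value, and 3 came from replicate 1 of vehicle. Acadsb in replicate 2 at 30 mg/kg was 7.35, with the others at 8.32 to 8.57. Ivd in replicate 1 of vehicle was 10.63, with the others at 11.11 to 11.18. Gcdh in the same sample was 11.86, with the others at 12.12 to 12.20, and Hibadh there was 12.47, with the others at 12.60 to 12.64. Bckdhb in replicate 2 of vehicle was 11.10, with the others at 11.48 to 11.63. Without its low sample Acadsb had a log2 difference from vehicle of 0.057 at 30 mg/kg, against -0.16 with it, and Hibadh had -0.013 at 10 mg/kg, against 0.017 with it. What sets these samples apart in these genes was not tested.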

How the results depend on the processing

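Under every alternative and with each sample left out in turn, 0 members were called in any of the 3 comparisons (limma), and the lowest adjusted p of a member was 0.128 (Ivd at 10 mg/kg), 0.126 (Gcdh at 30 mg/kg) and 0.646 (Decr1 at 30 mg/kg against 10 mg/kg). The 5 members with an unadjusted p under 0.05 (limma) kept their sign in all 120 combinations of gene and alternative fit per comparison. They were chosen by that p in the same data, so a kept sign is no separate evidence of direction. The 18 other named members changed sign in 12 of 431 such combinations at 10 mg/kg, 12 of 431 at 30 mg/kg and 13 of 431 between the doses. These fits share most of their samples. The median member at 10 mg/kg, -0.00465, lay on either side of 0 across alternatives (-0.00559 to 0.0102), and between -0.0331 and 0.0124 with 1 sample left out. At 30 mg/kg, -0.0691 as reported, it lay between -0.0837 (arrays centred on the median) and -0.0433 (quantile normalisation) across alternatives, and between -0.0885 and -0.0486 with 1 sample left out. Between the doses, -0.0522 as reported, the same alternatives gave -0.0659 and -0.0381, and leaving out 1 sample gave -0.0725 to -0.0155. The count of members at an unadjusted p under 0.05 was 2 to 7 at 10 mg/kg with 1 sample left out (5 as reported), 1 to 5 at 30 mg/kg (5) and 1 to 8 between the doses (5). It was 1 at 30 mg/kg and 2 between the doses after quantile normalisation, and 3 at 30 mg/kg with only the groups compared in the fit. Of all genes, 10 were called at 10 mg/kg, 3 without a filter, 16 with all probe sets as features and 0 to 26 with 1 sample left out: 26 without replicate 2 of the 30 mg/kg group, 21 without replicate 5 of vehicle, 1 without replicate 1 of vehicle or replicate 4 of the 30 mg/kg group, and 0 without replicate 2, 3, 4 or 5 of the 10 mg/kg group, replicate 1 of the 30 mg/kg group or replicate 2 or 4 of vehicle. At 30 mg/kg 0 were called, 10 with all probe sets as features and 0 to 5 with 1 sample left out (1 without replicate 1 and 5 without replicate 5 of vehicle). The cause of these shifts was not tested.

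Same-numbered samples showed no strong shared deviation (correlations of -0.0706 to 0.195 over 15 pairs, 3 of them over 0.1). Replicate 4 had the highest, 0.195 between 30 mg/kg and vehicle. Whether the replicate numbers pair the samples was not tested. With the replicate number as a block 0 genes were called at 10 mg/kg, and members at an unadjusted p under 0.05 numbered 4 at 10 mg/kg, 2 at 30 mg/kg and 5 between the doses.

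With 5 arrays per group, intervals of the members reached from 0.596 to 1.49 as folds against vehicle at the widest. Dim probe sets such as that of Cpt1b can understate differences. Transcript levels say nothing of enzyme activity or flux.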
